A study of Mus musculus with 22 samples.

Results

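The embryonic stem cell line C17, from BALB/c mice, was compared with the line B4, from C57BL/6 mice. Each line was measured once in each of 3 media, so that 3 C17 arrays were set against 3 B4 arrays and the arrays were paired by medium. These are 6 of the 22 samples of the series. The genes described are the 8984 autosomal genes detected on at least 2 of the 6 arrays, of 19953 autosomal genes with a matched probe and of 10545 detected genes in all. The media are labelled R2i, PD and SB. For the lines B18 and B20 the protocols give PD as the MEK inhibitor PD0325901, SB as SB431542, an inhibitor of Nodal, Activin and TGF-beta receptor kinases, and LIF with both inhibitors in N2B27 for the derivation of the lines, and the same names are used for C17 and B4. No genetic change is given for any of the lines. The other 16 samples are the C57BL/6 lines B18 and B20 on a smaller array, in R2i, PD and a medium labelled 2i. How B4 and C17 were derived, and their passage number, are not given in the sources used here. The labels do not say whether the 3 arrays of a line came from separate cultures. Each strain is represented by 1 line, and the array design was not matched here to the BALB/c genome. Strain, line and probe polymorphism therefore cannot be told apart. On the chip, B4 took the first 3 positions and C17 the last 3, so that line and position cannot be told apart either.

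Mouse embryonic stem cells are kept in a naive state by LIF together with small molecules that block differentiation signals, and strains differ in how readily they give such lines. Between lines of different origin, transcript levels can differ through sequence variants, through the methylation of imprinted genes, which are expressed from 1 parental allele only, and through changes of the chromosomes that arise in culture. Background of this kind names no cause for the values below.

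Both lines carried the markers of embryonic stem cells. All 6 of Pou5f1, Nanog, Sox2, Zfp42, Esrrb and Tdgf1 were detected on all 6 arrays, and Pou5f1, the central pluripotency factor, lay between 11.79 and 11.98 log2 intensity units. Of 6 fibroblast markers, 5 were detected on no array (Col1a1, Col1a2, Col3a1, Postn and Lum), and Thy1 was detected on all 6 at 5.30 to 5.92. Of 6 primitive endoderm markers, Gata4, Gata6, Sox17 and Pdgfra were detected on none, Dab2 was detected on 1 C17 array, and Sox7 was detected on all 6 at 5.78 to 6.80. Between 13591 and 14366 of 45281 probes (30% to 31.7%) were detected per array, with fewer in C17 (13591 to 13954) than in B4 (14244 to 14366). In the labels of the C17 arrays from PD and SB medium, the cell line field reads B4, whereas title, source and strain give C17 and BALB/c. The titles were used. Genes of the X chromosome, which are not members here, differed from B4 by medians of -0.39 in R2i, -0.47 in PD and -0.37 in SB on the log2 scale, so the arrays with the conflicting field differed from B4 as C17 in R2i did. In bulk RNA, fewer cells of a kind and less RNA per cell cannot be told apart.

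The lines differed at many genes. Of the 8984 autosomal genes, 1358 passed an adjusted p below 0.05 with higher levels in C17 and 1437 with lower levels (31.1% in both directions together). Over all 10545 genes, 15% passed as higher and 16.7% as lower. A 2-fold call, which also needs a difference of at least 1 on the log2 scale, was met by 107 autosomal genes that were higher in C17 and 91 that were lower. Over all genes these calls made up 1.19% and 1.36%. All 198 autosomal calls had the same direction in R2i, PD and SB, and 82 reached 2-fold in each medium alone. A call rests on the mean of these same 3 differences, so the shared direction follows largely from the calling and adds no support. Of the 198 genes, 148 were detected on all 6 arrays and 17 on no array of the lower line. When the arrays were scaled to a common median in place of a common distribution, the split turned to 75 higher and 133 lower, so the balance of directions depends on the scaling. The p-values come from limma with line and medium as terms, Benjamini-Hochberg adjusted over all genes, and they measure only the spread between these arrays. Without the PD pair 1575 autosomal genes passed in place of 2795, and with no term for medium 1595 did. A fit of the 3 B4 arrays against C17 in R2i alone left out the arrays with the conflicting field. It could hold no term for medium, and its spread came from B4 in 3 different media. In it 0 genes passed in limma (1566 at an unadjusted p below 0.05), which says nothing about stability. Of the 198 genes with a 2-fold call, 197 kept their sign there and 101 differed by at least 1 in the same direction. These genes were called on a fit that held the same arrays, so the kept signs were largely set in advance and add no support.

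**Figure D1:**
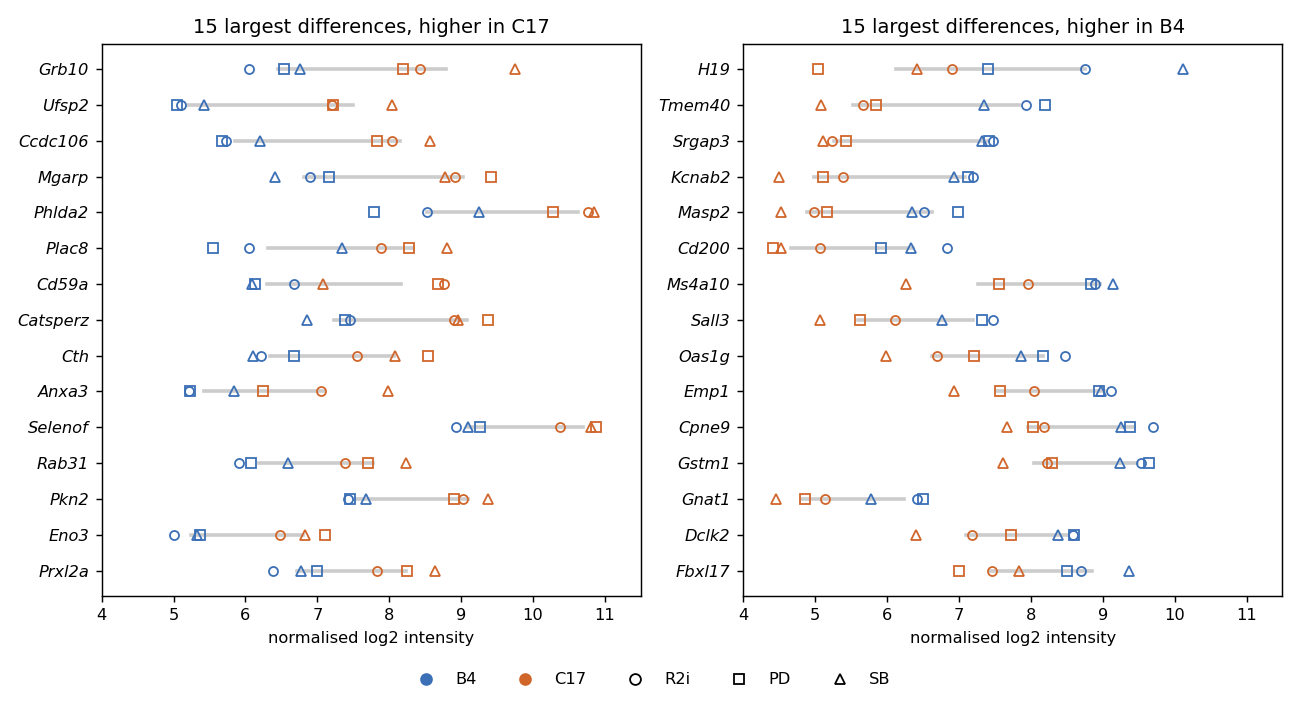
Normalised log2 intensity (x axis) of the 15 autosomal genes with the largest differences in each direction, 1 symbol per array, blue for B4 and orange for C17, with the shape giving the medium and the grey bar joining the line means. Only genes with the same direction in all 3 media were eligible, so the shared side of C17 within each medium follows from the choice. Predicted and clone names were left out. The differences run from Grb10 at 2.34 to H19 at -2.65.

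The genes with the largest differences were 2 imprinted ones. Grb10, an imprinted adaptor that restrains insulin and growth factor signalling, read 6.05 (R2i), 6.53 (PD) and 6.76 (SB) log2 units in B4 and 8.43, 8.19 and 9.75 in C17. The lines did not overlap, and Grb10 was 5.06-fold higher in C17 (2.34, SE 0.21, adjusted p = 0.00016, limma). H19, an imprinted noncoding RNA, read 8.76, 7.41 and 10.12 in B4 and 6.90, 5.04 and 6.42 in C17. The lines did not overlap, and H19 was detected on 2 of the 3 C17 arrays. H19 was 6.26-fold lower in C17 (-2.65, SE 0.27, adjusted p = 0.00027, limma).

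Other genes that were higher in C17 included enzymes and membrane proteins of varied function. Ufsp2, a protease of the UFM1 modifier, read 5.05 to 5.43 in B4 and 7.20 to 8.04 in C17, a 4.90-fold difference with no overlap. Its 3 probes differed by 2.29, 2.24 and 1.03. Ccdc106 was 4.87-fold higher (SE 0.11 on the log2 scale), and Mgarp, a mitochondrial protein, was 4.62-fold higher (SE 0.12). Plac8 read 6.05, 5.55 and 7.34 in B4 and 7.89, 8.28 and 8.80 in C17, so that all C17 arrays were above all B4 arrays. Cd59a, an inhibitor of the complement attack complex, read 6.09 to 6.68 in B4 and 8.76, 8.68 and 7.08 in C17, where SB was the low one of the 3. Further down in size were Catsperz, a sperm ion channel subunit (1.85, SE 0.14), the phospholipid-binding Anxa3 (1.67, SE 0.19), the GTPase Rab31 (1.58, SE 0.11), the muscle enolase Eno3 (1.57, SE 0.12) and Prxl2a (1.52, SE 0.14). Eno3 was detected on 2 of 3 B4 arrays.

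The genes with the largest differences that were lower in C17 had varied functions as well. Tmem40 read 7.93, 8.19 and 7.35 in B4 and 5.66, 5.84 and 5.08 in C17 (-2.30, SE 0.11). Srgap3, a GTPase-activating protein of neuronal cells, read 7.32 to 7.48 in B4 and 5.11 to 5.43 in C17 (-2.14, SE 0.12). For both genes every C17 array was below every B4 array. Kcnab2, a potassium channel subunit, was 4.27-fold lower by its fitted value, but C17 was detected on 1 of 3 arrays. Masp2, a protease of the lectin pathway of complement, was likewise detected on 1 of 3 C17 arrays (-1.73, SE 0.12). Cd200, a ligand that restrains myeloid cells, was detected on no C17 array and was at least 2.37-fold lower there (adjusted p = 0.00011, limma). Sall3, a zinc finger factor, differed by -1.59 (SE 0.12) and was detected on 2 of 3 C17 arrays. Gnat1, the rod transducin, differed by -1.42 (SE 0.12) and was detected on 1 of 3 C17 arrays. Dclk2 differed by -1.42 (SE 0.18) and Fbxl17 by -1.42 (SE 0.12). Ms4a10 read 8.84 to 9.14 in B4 and 7.96, 7.55 and 6.26 in C17, so that the difference was largest in SB.

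The differences were not spread evenly over the chromosomes. Genes at the end of chromosome 3 were higher in C17 almost without exception, while a longer stretch before it and the last part of chromosome 6 were lower. The genes were put in chromosomal order, and a run was counted where the running median of 25 genes stayed at or beyond 0.2 on the log2 scale for at least 25 genes. The genes named from the runs were chosen after their values were seen. The rule gave 10 autosomal runs with 575 genes, 4 lower and 6 higher in C17. The rule was chosen after the values were seen too, and the runs carry no test. The same rule found 2 runs in B20 against B18, both on chromosome 8. Opened at 0.25 instead, it found 9 autosomal runs, without those on chromosomes 2 and 12.

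**Figure D2:**
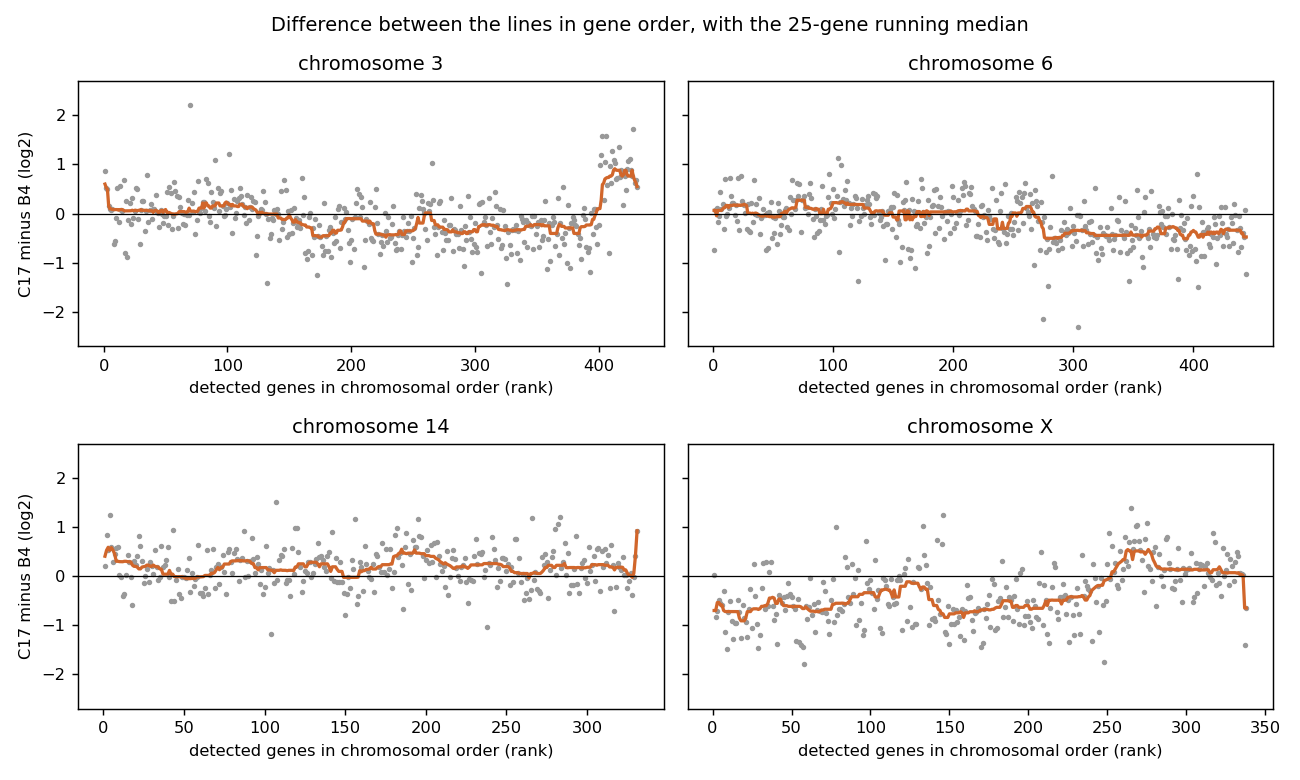
Difference C17 minus B4 on the log2 scale (y axis) for detected genes in chromosomal order (x axis, rank along the chromosome) on chromosomes 3, 6, 14 and X, with grey points for genes and an orange line for the 25-gene running median. The last 30 genes of chromosome 3 lie at a median of 0.83, the last 171 of chromosome 6 at -0.41, and most of X is below 0.

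The last run of chromosome 3 began at Kyat3 and ended at Wls, the last detected gene of the chromosome. It held 30 genes, of which 29 were higher in C17, 27 of these passing the test, and its median was 0.83 (1.78-fold). The medians within the media were 0.79 in R2i, 0.77 in PD and 0.93 in SB. Cth, which makes cysteine from cystathionine, read 6.22, 6.68 and 6.11 in B4 and 7.55, 8.54 and 8.08 in C17 (1.72, SE 0.14). Selenof, a selenoprotein of the endoplasmic reticulum, read 8.93 to 9.26 in B4 and 10.37 to 10.87 in C17 (1.59, SE 0.12). Pkn2, a protein kinase, read 7.43 to 7.68 in B4 and 8.90 to 9.37 in C17 (1.58, SE 0.11). None of these 3 genes had overlapping lines. The ribosome assembly factor Rpf1 (1.36), the nitric oxide pathway enzyme Ddah1 (1.27), the signalling adaptor Bcl10 (1.10) and the fatty acid oxidation enzyme Acadm (1.08) were among the 11 genes of the run with a 2-fold call. Lmo4 (0.27, adjusted p = 0.19) and Miga1 (0.17, adjusted p = 0.35) were higher without passing in limma. Clca3b alone was lower, at least 1.54-fold, and was detected on no C17 array. In B20 against B18, 28 of these genes were measured and their median was 0.05.

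Before it on the chromosome lay runs that were lower in C17, among them those from Arhgef2 to Tpm3 (34 genes, median -0.42) and from Riiad1 to Vps45 (36 genes, median -0.42). In the first 28 genes were lower and 18 passed as lower, and in the second 31 were lower and 22 passed as lower. The B20 minus B18 medians of these runs were -0.01 and 0.02. On chromosome 6, the last 171 detected genes from Rad18 to Resf1 had a median of -0.41, with -0.39 in R2i, -0.44 in PD and -0.44 in SB. In this run 147 genes were lower in C17, 93 of them passing, and 5 passed as higher, among them Hebp1 (0.80) and Camk1 (0.76). Tmem40, Srgap3, Emp1 and Cpne9 of the leading genes lie in this run, and so does Nanog. The growth factor gene Gdf3 (-0.79, adjusted p = 0.0013, limma) and the cell cycle gene Cdca3 (-1.08) belong to it too. In B20 against B18 the run had a median of 0 over 142 genes.

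**Figure D3:**
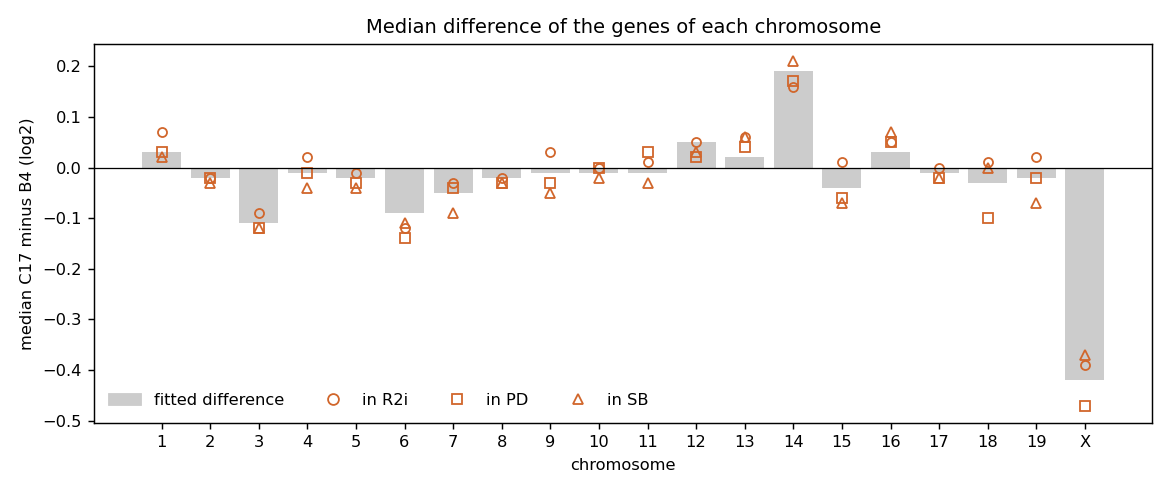
Median difference C17 minus B4 on the log2 scale (y axis) of the detected genes of each chromosome (x axis), grey bars for the fitted difference and orange symbols for each medium. Chromosome 14 stands at 0.19 and X at -0.42, and the other autosomes lie between -0.11 and 0.05.

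Chromosome 14 was the one autosome whose median lay beyond 0.11 in size. Its 331 genes had a median of 0.19 (0.16 in R2i, 0.17 in PD and 0.21 in SB), 104 passed as higher and 23 as lower. Within it a run from Psme1 to Ebpl held 43 genes with a median of 0.41. Shorter or weaker runs that were higher in C17 lay on chromosome 1 from Nabp1 to Nif3l1 (0.37), on chromosome 2 from Tmem230 to Rin2 (0.37), on chromosome 8 from Asah1 to Zfp930 (0.30) and on chromosome 12 from Rnf144a to Srp54a (0.23). In B20 against B18 the run of chromosome 8 had a median of -0.18, with 6 of 32 genes higher in B20, and that of chromosome 2 had a median of 0.12. The medians for chromosomes 1, 12 and 14 were 0.05, 0.04 and -0.02. The 8409 autosomal genes outside all runs had a median of -0.01, and 29.5% of them passed the test. They held 93 of the higher and 73 of the lower 2-fold calls, and the 575 genes within the runs held the other 32. The runs were chosen on the same values, so nothing is read from this split. DNA copy number was not measured, and its part in the runs was not tested.

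The X and Y chromosomes lie outside the autosomal set and are given for the comparison of runs. X-linked genes from Vamp7 to Map7d3 (122 genes) and from Sms-ps to Brwd3 (113 genes) had medians of -0.57 and -0.63. The run from Armcx1 to Nxt2 was higher in C17 (25 genes, 0.52). Of the 4 Y-linked genes tested, Eif2s3y and Sly were detected on all 3 C17 arrays and no B4 array. They were at least 1.84-fold and 1.32-fold higher in C17, where Eif2s3y read a dim 5.62 to 6.28. Ddx3y differed by 0.26 (adjusted p = 0.17, limma), and Uty, detected on 1 array of each line, by 0.1.

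Imprinted genes differed in both directions. Of 32 in the list, 18 autosomal ones were detected, 6 passed as higher in C17, 6 as lower and 6 did not pass, with a median of -0.06. All genes together had a median of -0.01, and 31.7% of them passed. Phlda2, which limits placental growth, read 8.53, 7.79 and 9.25 in B4 and 10.77, 10.28 and 10.85 in C17 (2.11, SE 0.16). Igf2, a fetal growth factor that neighbours H19, read 8.21, 7.34 and 8.83 in B4 and 9.76, 7.68 and 10.03 in C17. For Igf2 the lines overlapped, since C17 in PD was below 2 of the B4 arrays, although the paired difference passed (1.03, SE 0.20, adjusted p = 0.0047, limma). The growth inhibitor Cdkn1c (0.91, SE 0.16), the amino acid transporter Slc38a4 (0.99, SE 0.12) and the G protein gene Gnas (0.74, SE 0.12) were also higher. Peg3, a zinc finger gene expressed from the paternal allele, read 10.19, 9.82 and 10.42 in B4 and 9.32, 8.54 and 8.73 in C17 (-1.28, SE 0.16). Ndn (-0.93), Mest (-0.70), the noncoding RNA Meg3 (-0.60) and Ascl2, which was detected on 2 B4 arrays and no C17 array, were lower with it.

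**Figure D4:**
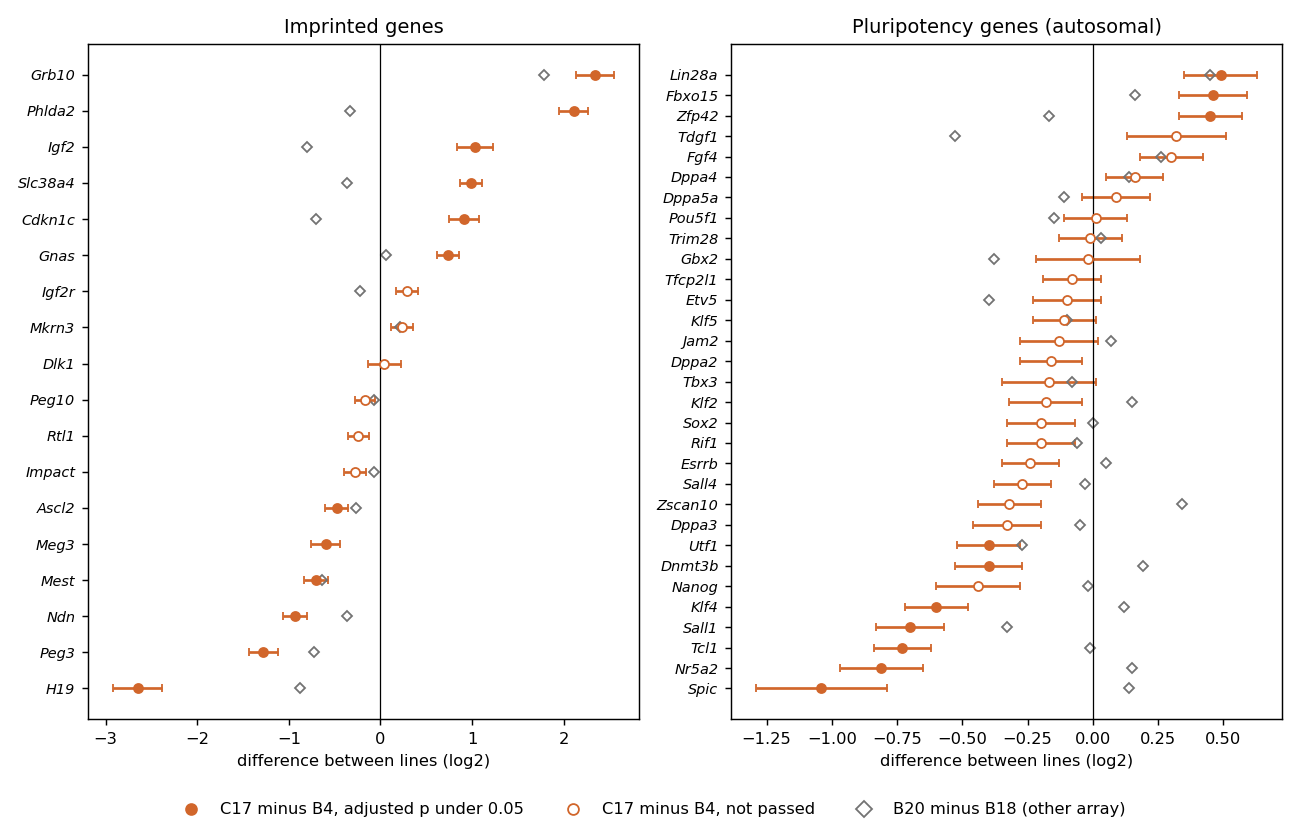
Difference between lines on the log2 scale (x axis) for detected imprinted genes (left) and autosomal pluripotency genes (right). Orange circles give C17 minus B4 with the SE as bars, filled where the adjusted p was below 0.05, and grey diamonds give B20 minus B18 from the other array where measured. Imprinted genes span -2.65 to 2.34 and pluripotency genes -1.04 to 0.49, with Ascl2 not above background in C17.

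The C57BL/6 lines B20 and B18 give the difference of 1 pair of lines of 1 strain, on another array and with 16 arrays. It is the mean over R2i, PD and 2i, with no SB arrays, so the media differ from those of C17 against B4. There 33.0% of 9162 genes passed the adjusted p, and 2 genes (0.0218%) reached a 2-fold call. With R2i and PD alone 8 did, with median scaling 4, and without 1 array 1 to 3. The SEs were smaller in that design, and line and chip cannot be told apart in it, so the 2 sets of calls are given side by side without a test. Of the 198 autosomal 2-fold calls between C17 and B4, 164 were measured in B18 and B20, and 70 of them passed there. Grb10 was the one of them with a 2-fold call there (B20 minus B18 of 1.78, SE 0.06). The other gene with a 2-fold call there was Scd2, a fatty acid desaturase (-1.03, SE 0.10), which differed by -0.19 between C17 and B4 and is named for this after its values were seen. Imprinted genes with the same sign in both comparisons included H19 (B20 minus B18 of -0.88), Peg3 (-0.73), Mest (-0.64) and Ndn (-0.37). For H19 and Peg3 that difference was between dim signals, with line means of 6.02 and 5.41 in B18 and 5.15 and 4.68 in B20. Igf2 (-0.80), Cdkn1c (-0.70), Slc38a4 (-0.37) and Phlda2 (-0.33) had the opposite sign there.

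Pluripotency genes passed about as often as all genes, of which 31.7% did. Of 20 autosomal naive pluripotency genes, 2 passed as higher in C17 (Fbxo15 at 0.46 and Zfp42 at 0.45), 4 as lower and 14 did not pass, with a median of -0.16 (30% passed). Spic, an ETS-family factor, read 7.94, 7.19 and 7.17 in B4 and 7.68, 6.28 and 5.21 in C17, with the largest gap in SB (-1.04, SE 0.25). The nuclear receptor Nr5a2 (-0.81, SE 0.16), Tcl1 (-0.73, SE 0.11) and Klf4 (-0.60, SE 0.12) were lower as well. Nanog read 11.98, 12.16 and 11.86 in B4 and 11.89, 11.81 and 10.97 in C17, and its difference did not pass (-0.44, SE 0.16, adjusted p = 0.055, limma). Pou5f1 (0.01, 95% interval -0.25 to 0.28), Sox2 (-0.20), Esrrb (-0.24), Dppa3 (-0.33) and Tdgf1 (0.32) did not pass either. Of 11 autosomal general pluripotency genes (36.4% passed, median -0.20), Lin28a passed as higher (0.49) and Sall1 (-0.70), Dnmt3b (-0.40) and Utf1 (-0.40) as lower. Under median scaling the naive list had 0 higher and 8 lower.

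Trophoblast genes were lower in C17 where they passed. Of 9 autosomal ones detected, 4 passed (44.4%), each of them lower, and 5 did not pass, with a median of -0.30. Over all genes 31.7% passed, 16.7% of them all as lower. Without background correction 2 passed. Gata3, a trophoblast factor, read 6.11, 5.33 and 5.02 in B4 and 4.63, 4.34 and 4.28 in C17, where it was not detected. In B4 it was detected on 2 arrays. Tfap2a and Ascl2 were not detected in C17 either, and they read at most 5.12 and 5.43 in B4, near background. Tead4, at -0.72 (SE 0.11), lies in the last run of chromosome 6, whose median was -0.41. The trophoblast factors Cdx2, Hand1 and Elf5 were detected on no array of either line.

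Among enzymes of glutathione, redox and xenobiotic metabolism, 19 of 43 autosomal genes passed (44.2%, beside 31.7% of all genes). Of these, 9 were higher and 10 lower in C17, and the list had a median of -0.02. Under median scaling the counts were 7 and 15. Gstm1, a glutathione transferase, read 9.53, 9.64 and 9.24 in B4 and 8.23, 8.29 and 7.61 in C17 (-1.43, SE 0.12). The epoxide hydrolase Ephx1 (-1.15, SE 0.12), Gsta3 (-1.08, SE 0.19) and Gclm, a subunit of the enzyme that starts glutathione synthesis (-0.97, SE 0.13), were lower too. Mgst3 (0.70) and Nqo1 (0.69) were higher. Gstm1, Gstm2 and Gclm lie on chromosome 3, and the transferase genes of the Gstm family are close copies whose probes may share signal. Of 64 autosomal genes of oxidative phosphorylation, 4 passed as higher, 2 as lower and 58 did not pass (9.38% passed, beside 31.7% of all genes). With no background correction the counts were 12 and 6, and under median scaling 1 and 6.

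Genes of antigen presentation and virus defence passed at 27.3% and 28.6%, beside 31.7% of all genes. Of 11 detected genes of MHC class I presentation, 3 passed, each higher in C17, with a median of 0.03. Psmb9, an immunoproteasome subunit, was detected on all 3 C17 arrays and on no B4 array, at least 1.81-fold higher (adjusted p = 0.00014, limma). H2-K1 read 5.33 to 5.45 in B4 and 5.99 to 6.64 in C17, and H2-D1 differed by 0.75 (SE 0.14). The classical class I genes are polymorphic between these strains, and probes may read their alleles unequally. Of 14 virus restriction and interferon genes, 4 passed, each lower (median -0.06). Those were Oas1g, which read 8.48, 8.17 and 7.86 in B4 and 6.70, 7.21 and 5.99 in C17, and Ifitm1 (-0.74), Ifitm3 (-0.63) and Ifitm2 (-0.55). Apobec3 did not pass (0.07), and Nnt, on the array, did not reach the detection filter. Wdfy1 read 7.49 to 7.77 in B4 and 8.99 to 9.23 in C17 (1.51, SE 0.12).

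Among signalling targets and chromatin genes, members passed in both directions. The canonical Wnt target list had 7 detected genes, of which 71.4% passed, beside 31.7% of all genes. Its median was -0.44, and -0.11 without background correction, where 3 passed, each lower. Apcdd1 (-1.13, detected on 1 C17 array), Tcf7l1 (-0.91) and Notum (-0.66) were among the 4 members that passed as lower. Tcf7 (0.57, detected on 1 B4 array) passed as higher. Of 11 Nodal, Activin and TGF-beta targets, 3 passed, each higher (Skil at 0.79, Ccn2 at 0.71, and Ccn1, which was detected on no B4 array and 2 C17 arrays), with a median of 0.12, or -0.03 under median scaling. Of these, Skil and Ccn1 lie on chromosome 3, and Ccn1 lies in its last run. Of 12 MEK-ERK targets 1 passed each way. The ERK target Etv1 was lower in each medium by 0.96 to 1.20 and passed (-1.09, SE 0.11), while Dusp4 was higher (0.53, SE 0.12). Of 13 autosomal genes of DNA methylation, Uhrf2 passed as higher (0.87, SE 0.11), and Tet2 (-0.92, SE 0.12), Uhrf1 (-0.49) and Dnmt3b (-0.40) were among 4 that were lower. Of 15 p53 targets, 4 passed, each lower (Gdf15 at -0.65, Phlda3 at -0.61, Sesn2 at -0.54 and Plk2 at -0.53), with a median of -0.21. Gdf15 was detected on 1 C17 array. Of 19 autosomal cholesterol synthesis genes 1 passed as higher and 4 as lower (0 and 8 under median scaling). The lower ones were led by Fdps at -0.85 (SE 0.11), which was at -0.62 in B20 against B18. Fdps and Pmvk (-0.40), which also passed as lower, lie in the chromosome 3 run from Arhgef2 to Tpm3. Among 33 cell cycle genes 4 passed each way, and Ccne2 was higher (1.17, SE 0.12). Of 15 epithelial and mesenchymal genes 3 passed as higher and 2 as lower (2 and 4 under median scaling), with the tight junction gene Cldn6 at 1.03 (SE 0.13) and the intermediate filament gene Vim at -1.42 (SE 0.15). B4 in SB and C17 in PD overlapped for Vim, at 8.40 and 8.42.

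The remaining lists were short or had few detected members. In them 3 of 6 primed epiblast and primitive streak genes passed, among them Sox4 (1.00, higher) and Gsc (-0.77), 2 of 6 primitive endoderm genes (Lama1 at 0.56 and Sox7 at -0.55), 3 of 6 germline genes (Fkbp6, detected on no B4 array and at least 1.25-fold higher in C17, Piwil2 at 0.38 and Hormad2 at -0.48). Of 4 fibroblast genes 1 passed each way, and neither the 2 neural genes nor the 1 gene of the 2-cell-like state passed. Of 12 loci known to vary between strains 3 passed as higher (Wdfy1, H2-K1 and H2-D1) and 1 as lower. Outside the autosomes, 8 of 15 X-linked dosage genes passed, each lower. Of all 338 detected X-linked genes 63.9% passed, and 53% passed as lower, so the dosage genes did not stand out from the X chromosome. Of the 3 detected genes of the X-inactivation and Y-linked list, all Y-linked, Eif2s3y passed. Of 6 BMP-SMAD1/5 targets, Id2 passed (0.94, SE 0.24). Of 16 LIF-STAT3 targets 3 passed as higher, led by Junb (0.71) and Icam1 (0.69), and 2 as lower. Of 21 genes of glycolysis and hypoxia response 5 passed as higher, with Pdk1 at 0.64 and Ldha at 0.62, and 4 as lower, with Ndrg1 at -0.79. Under median scaling these counts were 3 and 5. Of 21 genes of amino-acid and ER stress 2 passed as higher (Dnajb9 at 0.61 and Psat1 at 0.51) and 3 as lower, with Xbp1 at -0.61. The autosomal lists are described beside the 31.7% of all genes that passed, and no list was tested as a list.

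The difference between the lines varied with the medium for a few genes. In R2i 2.48% of all genes differed by at least 2-fold between the 2 arrays, in PD 3.49% and in SB 4.98%, as counts of fold with no test. The 7636 autosomal genes detected on all 6 arrays had a median range of 0.34 over the 3 media. Id1, a BMP target that blocks differentiation, read 6.11, 5.83 and 7.30 in B4 and 6.65, 5.55 and 10.42 in C17. Its difference was 3.12 in SB, 0.54 in R2i and -0.28 in PD. Id2 had its largest difference in SB as well (1.85). Bmp4, the ligand of that pathway, read 8.06, 6.66 and 8.88 in B4 and 7.61, 5.64 and 10.10 in C17, with a difference of 1.22 in SB and -1.02 in PD. In SB, Id1, Id2 and Bmp4 were all higher in C17, each on a single array per line. Id1 and Bmp4 are named because they ranged widely over the media. Over the 3 media neither passed (Id1 at 1.13, SE 0.48, adjusted p = 0.1, limma, and Bmp4 at -0.08, SE 0.33). The 6 detected genes of the BMP-SMAD1/5 list had a median of 0.01 in the fit over the 3 media, which does not describe SB alone. Calcoco2, an autophagy receptor, differed by -2.60 in SB and by -0.11 in PD, and Pdzk1 by -2.21 in SB and 0.06 in R2i. Pigt stood out in R2i instead (-1.94).

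**Figure D5:**
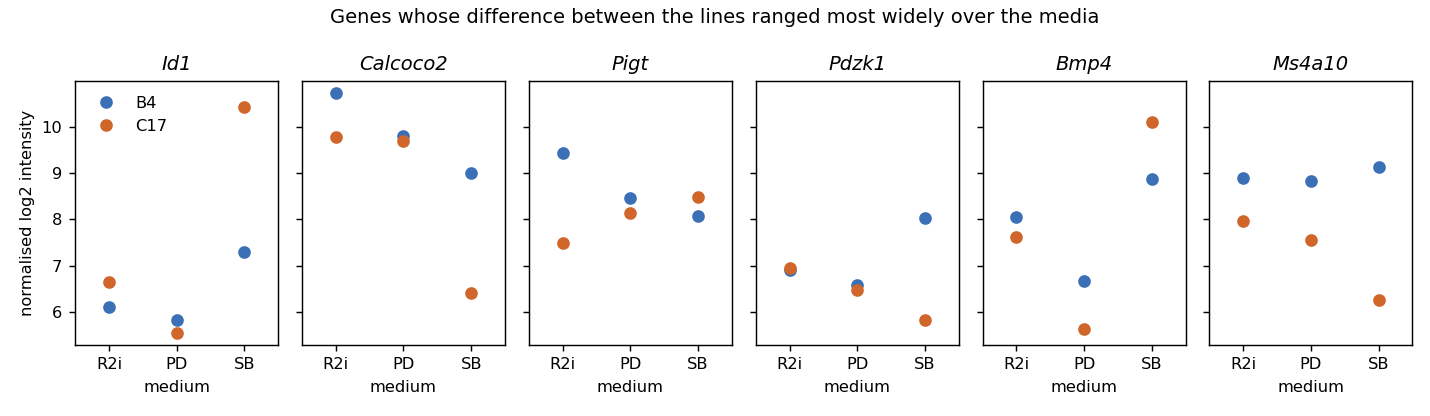
Normalised log2 intensity (y axis) in each medium (x axis) for the 6 autosomal genes whose difference between the lines ranged most widely, 1 point per array, blue for B4 and orange for C17. Id1 in SB reads 10.42 in C17 and 7.30 in B4, while in PD the lines read 5.55 and 5.83.

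Probes of the same gene mostly moved together. Of the 198 autosomal 2-fold calls, 44 had at least 2 probes detected on at least 3 arrays, and in 43 of these all probes had the same sign. In 15 all probes reached a difference of 1. The other probes of the 44 genes numbered 58, of which 49 differed by at least 0.5 in the direction of the brightest probe. The largest disagreements were in the 6 genes with the widest spread between probes. Polymorphism and transcript variants cannot be told apart in them. For Pawr, 1 probe was higher in C17 (0.81, SE 0.13) and another lower (-1.09, SE 0.16), each with no overlap between the lines. The 3 probes of Dido1 gave 1.10, 0.05 and -0.63, and those of the cholesterol transporter Npc1 gave 0.51, -0.87 and -0.96. In Rpf1 of the chromosome 3 run, probes gave 1.76, 1.36 and 0.04, the last on a dim probe detected on 3 arrays. Srgap3 gave -0.81 and -2.14 by its 2 probes. For these genes the value depends on the probe. The other 2-fold calls had fewer than 2 probes detected on at least 3 arrays, and Gata3 had none.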

How the data were processed

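RNA was hybridised to Illumina bead arrays, 6 of them (C17 and B4, each in R2i, PD and SB) on the WG-6 v2 design and 16 (B18 and B20) on a smaller one. The deposited scanner tables give an intensity per probe, not yet normalised, and a detection p-value per probe, also from the deposited tables. A probe counted as detected below 0.01. A deposited log2 table of the same arrays was used as an alternative. GenomeStudio and limma are named in the submitters' processing notes. From the intensities, background was corrected with the 936 negative controls, an offset of 16 was added and arrays were quantile-normalised (neqc, limma 3.58.1, R 4.3.3). The authors' log2 values were lower than these by a median of 4.145 on every array (SD over probes 0.003).

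Probes detected on at least 2 of the 6 arrays were kept (14979), matched to current symbols and chromosomes through a RefSeq gene table, and 1 probe per gene (the brightest) was tested. Of the kept probes, 1264 matched no gene of that table, and 1219 tested genes had no chromosome. The fit had line and medium as terms and 2 residual degrees of freedom, moderated across genes, with Benjamini-Hochberg adjustment over all genes. The spread rests on 1 array per line and medium, and the number of arrays limits the precision. Where a gene was detected on no array of one line and on all 3 of the other, a fold is given as a lower bound: the mean of the brighter line against, per array of the dimmer line, the higher of the probe's own value and the lowest signal among detected probes. With fewer arrays no fold is given. Fold changes are on the log2 scale after an offset, which understates the change of dim genes. The comparison was tested on simulated data.

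The genes named were the 15 largest autosomal 2-fold calls in each direction and up to 4 passing members of each of 29 gene lists. Also named were 17 fixed genes, the 6 genes with the most discordant probes and the 6 that ranged most over the media. Some further list members, such as Slc38a4, Gnas, Ndn, Mest, Fbxo15, Mgst3 and Nqo1, were named outside these rules. They were not among the 123 named genes recomputed under the alternatives. The 15 largest had to have the same direction in all 3 media and be detected on all 3 arrays of the higher line. Predicted and clone names, such as Gm13669 at -1.46, were left out. The comparison and the lists were chosen with earlier results of these data known. The alternatives were another background correction, scaling, filter, offset, probe rule and model, and leaving out each array in turn. No probe sequence was used here, so probes were not checked for strain variants. One run of genes on chromosome 3 is not reported here.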

Additional observations from a re-analysis of the deposited data

Results flagged for a closer look

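Bmp4 differed between the lines in opposite directions in 2 media. In SB its level was 1.22 higher in C17 on the log2 scale, and in PD it was lower (-1.02), each from 1 array per line. This opposition was not tested, since each line and medium has 1 array.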

How the results depend on the processing

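The count of autosomal genes that passed (2795) moved to 1808 with no detection filter, to 1595 with line alone in the model, and to 1575 to 2490 when an array was left out, with the lowest count without either PD array. Each left-out array removes its whole medium pair from the comparison. The 2-fold calls (107 higher, 91 lower) fell to 23 and 18 without background correction and to 42 and 39 with an offset of 50, both of which compress dim genes by construction, and ranged over 101 to 132 and 77 to 122 without 1 array. The median of the last run of chromosome 3 (0.83) was 0.55 without background correction, 0.73 with median scaling, 0.66 with the larger offset and 0.77 to 0.88 without 1 array. That of the last run of chromosome 6 (-0.41) was -0.24, -0.51, -0.32 and -0.45 to -0.39 in the same order, and -0.44 over genes detected on every array. With C17 in R2i alone and no term for medium, added after seeing the data, 0 genes passed and so 0 could be 2-fold calls, although 101 of 198 still differed by at least 1; the chromosome 6 median was -0.35. The sign turned for Pawr with the mean of its probes (-0.14) and for Spic with C17 in R2i alone (0.25). Of 123 named genes, 66 kept their call under every alternative but the R2i fit and 56 lost or gained it under at least 1. Of 18 alternatives, in which leaving out a medium counts 3 times, Piwil2 lost its call in 14, Lin28a in 10 and Pmvk in 9. Zfp42, Uhrf1, Dnmt3b, Utf1, Meg3, Tfap2a, Sesn2 and Plk2 lost it in 8 each. Median scaling shifted the median of all genes to -0.10 and left 30.1% of the passing genes higher in C17, against 48.6%; the cause of these shifts was not tested. For B20 against B18, 3024 genes passed, 4605 with median scaling, 2345 to 3106 without 1 array and 2918 with a replicate block. Same-numbered samples of B18 and B20 correlated at -0.09 to 0.07 within a medium and at -0.15 to 0.08 over all media, so they share only a number, and the block for C17 and B4 is the medium term.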
